A study of Mus musculus with 9 samples.

Results

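The genes described here are 10 genes of the MHC class I antigen presentation pathway, chosen by symbol and matched to the Ensembl mouse gene identifiers of the expression files. They are the heavy chains *H2-K1* and *H2-D1*, the light chain *B2m*, the peptide transporter subunits *Tap1* and *Tap2*, the loading factor *Tapbp*, the immunoproteasome subunits *Psmb8*, *Psmb9* and *Psmb10*, and the transcriptional activator *Nlrc5*. All 10 were found once among 54838 gene identifiers. Gene expression had been measured by bulk RNA-seq in 7 libraries of organoids grown from the intestine of C57BL/6 mice carrying *Vil-CreERT2* and floxed *Mettl3* (*Vil-CreERT2*;*Mettl3* fl/fl), so that every group carried the transgene and the floxed alleles. *Vil-CreERT2* is a Cre recombinase under the villin promoter of intestinal epithelial cells, which 4-hydroxytamoxifen (4-OHT) activates, and *Mettl3* encodes the catalytic subunit of the m6A RNA methyltransferase. Over 2 days organoids had been given 4-OHT or its solvent ethanol (EtOH), and over 5 days the RIPK1 kinase inhibitor necrostatin-1 (Nec-1) or DMSO. Each group had 2 libraries, except 4-OHT Nec-1 with 1. No library of organoids without Cre that received 4-OHT was used here, so that an effect of 4-OHT and one of the deletion cannot be told apart, and the labels do not tie libraries to separate animals or cultures, so that p-values measure the spread between these libraries, which may be technical.

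*Mettl3* was higher, not lower, in libraries labelled 4-OHT. It stood at 2.70 and 2.71 FPKM (fragments scaled for transcript length and for all mapped fragments) in the EtOH DMSO libraries, and at 2.41 and 2.47 in those of EtOH Nec-1. The 4-OHT DMSO libraries held 3.72 and 4.13 FPKM and the 4-OHT Nec-1 library 3.36. The difference of 4-OHT DMSO from EtOH DMSO was 0.41 ± 0.10 (SE) in log2(FPKM + 1), with a Benjamini-Hochberg adjusted p of 0.0231 in limma, and 0.25 with an adjusted p of 0.080 after median centring. The values cover the whole gene, and whether the floxed part had been excised cannot be read from them. Groups are therefore named by the labels of their libraries throughout.

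Class I molecules are built from a heavy chain, β2-microglobulin (*B2m*) and a short peptide, and nearly all nucleated cells carry them so that cytotoxic T cells can survey the proteins made inside. The peptides are cut by the proteasome, carried into the endoplasmic reticulum by the TAP transporter and loaded with the help of tapasin (*Tapbp*). Interferons raise the whole pathway through activators such as IRF1 and NLRC5, and replace the catalytic subunits of the constitutive proteasome by those of the immunoproteasome.

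Of the 10 genes, 7 lie on chromosome 17, in or next to the MHC. In RefSeq's GRCm38.p6 (the mm10 of the submitters' notes) *Tapbp* (ENSMUSG00000024308) spans chr17:33919478-33929290 and *H2-K1* (ENSMUSG00000061232) spans chr17:33996012-34000619. *Psmb9* (ENSMUSG00000096727, chr17:34182030-34187330), *Tap1* (ENSMUSG00000037321, chr17:34187556-34197225), *Psmb8* (ENSMUSG00000024338, chr17:34198195-34201454) and *Tap2* (ENSMUSG00000024339, chr17:34204479-34216321) follow each other within 34292 bases. *H2-D1* (ENSMUSG00000073411) spans chr17:35263094-35267497. *B2m* (ENSMUSG00000060802) lies at chr2:122147687-122153082, *Psmb10* (ENSMUSG00000031897) at chr8:105935728-105938392 and *Nlrc5* (ENSMUSG00000074151) at chr8:94434335-94527272.

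The promoters are shown because all 10 genes were highest in the same 2 libraries, as described further on. RefSeq's table held the bases before the annotated start for 8 of the 10 genes, and none for *Tap2* and *Nlrc5*. The 250 bases before each start were searched on both strands for the core of the interferon-stimulated response element (ISRE; GAAA, any 2 bases, GAAA), the interferon-γ activated sequence (GAS; TTC, any 3 bases, GAA), the κB consensus, the CCAAT box and TGACG, the core of the X2 box of class I promoters. Below, capitals mark the matches, and the windows are those of *H2-D1* (chr17:35262844-35263093, plus strand), *B2m* (chr2:122147437-122147686, plus strand) and *Psmb8* (chr17:34197945-34198194, plus strand).
H2-D1: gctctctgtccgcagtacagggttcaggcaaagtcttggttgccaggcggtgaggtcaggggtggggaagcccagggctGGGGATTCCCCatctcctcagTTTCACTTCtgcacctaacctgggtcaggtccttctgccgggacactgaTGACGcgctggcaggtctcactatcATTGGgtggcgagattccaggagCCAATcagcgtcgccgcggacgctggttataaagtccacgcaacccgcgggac
B2m: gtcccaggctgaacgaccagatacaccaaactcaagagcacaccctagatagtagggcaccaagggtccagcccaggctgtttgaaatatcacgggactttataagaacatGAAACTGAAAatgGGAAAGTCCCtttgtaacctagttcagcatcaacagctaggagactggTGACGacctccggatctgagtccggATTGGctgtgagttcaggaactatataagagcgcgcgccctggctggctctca
Psmb8: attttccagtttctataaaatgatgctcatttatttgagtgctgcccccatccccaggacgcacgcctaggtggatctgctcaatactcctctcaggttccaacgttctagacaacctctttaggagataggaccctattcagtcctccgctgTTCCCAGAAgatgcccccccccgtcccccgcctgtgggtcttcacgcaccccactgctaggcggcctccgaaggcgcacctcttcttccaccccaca

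The *H2-D1* window held a κB match whose 2 overlapping readings form the 11 bases in capitals, then TTTCACTTC, TGACG and 2 CCAAT boxes on opposite strands. TTTCACTTC is, on the other strand, the ISRE core shortened by 1 base, a pattern added to the search after the windows had been read. For *H2-K1* RefSeq's table held windows of 2 starts, both inside the annotated span of the gene, which reaches further upstream. The window of the downstream start held the same matches in the same order. Over 204 bases set at the κB match, this window and that of *H2-D1* were 82.8% identical. The 30 bases from the κB match to the end of TTTCACTTC are shown for *H2-K1* (chr17:34000429-34000458, minus strand) and *H2-D1* (chr17:35262923-35262952, plus strand), and 29 of them were identical.
H2-K1: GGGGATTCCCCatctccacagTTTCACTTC
H2-D1: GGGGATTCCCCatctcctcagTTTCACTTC

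*Psmb9* and *Tap1* are read in opposite directions from starts with 225 bases between them, so that they share their promoter DNA. That stretch is shown on the strand of *Tap1* (chr17:34187331-34187555, plus strand), and its CCAAT box and TGACG count for both genes.
Tap1: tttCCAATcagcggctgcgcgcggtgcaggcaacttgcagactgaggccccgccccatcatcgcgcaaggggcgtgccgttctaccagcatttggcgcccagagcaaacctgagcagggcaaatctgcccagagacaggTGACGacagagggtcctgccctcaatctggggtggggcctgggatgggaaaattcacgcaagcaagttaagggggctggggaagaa

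The ISRE core was found in 1 of the 8 genes with a window (*B2m*) and in 2.97% of all 32817 windows of that length. The shortened pattern was found in 2 of 8 (*H2-K1* and *H2-D1*) and in 6.31% of all windows. It had been chosen after these windows were read, so that its matches in them were given in advance and cannot be weighed against that share. A gene was counted once if any of its windows matched, and *H2-K1* had 2, while the percentages count windows. The κB consensus was found in 3 of 8 (*H2-K1*, *H2-D1* and *B2m*) and in 3.9% of all windows, GAS in 1 of 8 (*Psmb8*) and in 7.01%. The CCAAT box was found in 6 of 8 and in 33.8% of all windows, and TGACG in 5 of 8 and in 17.7%. *Psmb10* held none of these letters in its window and *Tapbp* only CCAAT boxes. A match is a run of letters, and binding of a factor was not measured here.

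The FPKM of a library added up to 450207 to 498712, and 11559 to 12038 genes reached 1 FPKM. Fragment counts were not given, so that the depth behind single values is unknown, but the spacing of the lowest values gave depths between 0.853 and 1.03 relative to the first library of EtOH DMSO. Epithelial markers were abundant in every library (*Epcam* at 431 to 609 FPKM). The defining immune markers *Ptprc*, *Cd3e*, *Itgax* and *Adgre1* were all below 0.1 FPKM in every library, and 11 of 13 immune markers and all 10 stromal and endothelial markers stayed below 1 FPKM. The exceptions were *Cd68*, which epithelial cells can also express (0.774 to 2.01 FPKM in the EtOH libraries and 5.69 to 7.72 in those labelled 4-OHT), and *Itgam* (0.315 to 2.45 FPKM). FPKM is scaled per length, so that levels of different genes can be set side by side.

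In EtOH DMSO, the control organoids, the heavy and light chains stood at high levels, and the transporter and inducible proteasome subunits at lower ones. *B2m* stood highest, at 377 and 327 FPKM, followed by *H2-K1* at 138 and 138 and *H2-D1* at 90.4 and 89.7. *Psmb10* (19.6 and 19.1 FPKM) and *Tapbp* (6.81 and 14.3) came next. *Psmb9*, *Tap2*, *Psmb8* and *Tap1* lay between 1.75 and 5.14 FPKM, and among these neighbours *Tap2* and *Psmb8*, and *Psmb8* and *Tap1*, overlapped in their 2 libraries. *Nlrc5* was listed at 0 and at 0.010 FPKM. In 4-OHT DMSO *B2m* was again highest, while *H2-D1* (260 and 293 FPKM) overlapped *H2-K1* (264 and 244), and *Psmb8*, *Tap1*, *Psmb9* and *Tap2* lay between 6.37 and 14.1 FPKM.

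**Figure D1:**
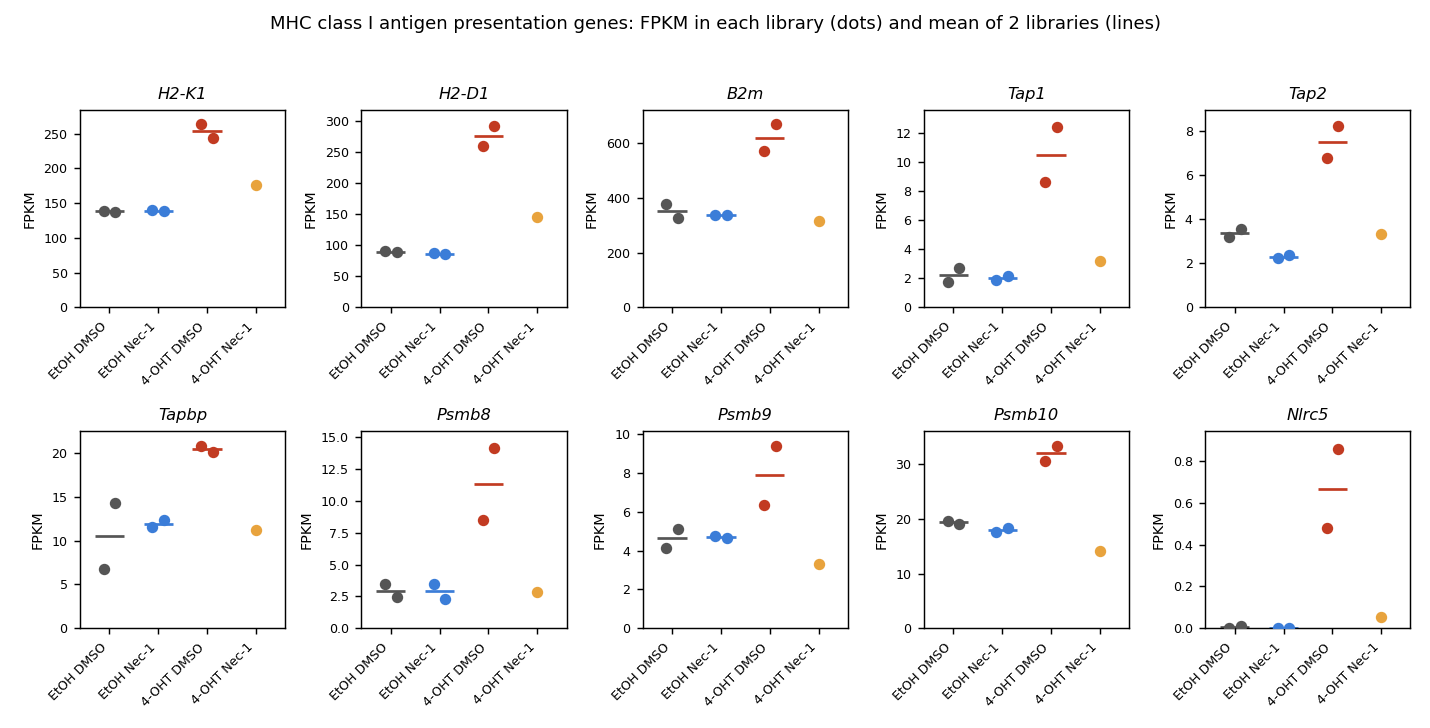
FPKM (y axes, linear, from 0, a scale of its own for each gene) of the 10 genes in the 4 groups, with a dot per library and a line at the mean of 2 libraries. In each panel both 4-OHT DMSO dots lie above all dots of the other groups.

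All 10 genes were higher in both 4-OHT DMSO libraries than in both EtOH DMSO libraries. The organoids labelled 4-OHT DMSO and EtOH DMSO were compared in limma on log2(FPKM + 1), with the spread estimated over all 7 libraries, in the 12702 genes that reached 1 FPKM in 2 libraries or more. The 9 genes other than *Nlrc5* exceeded 1 FPKM in every library, so that none entered the test through its high group alone. Of these 9, 8 rose and 0 fell at an adjusted p under 0.05, and all 9 had an unadjusted p under 0.05. Of all genes tested, 24.5% rose, 16.7% fell, and 40.7% had both 4-OHT DMSO libraries above both EtOH DMSO libraries. The median difference was 0.95 on the log2(FPKM + 1) scale in the 9 genes and 0.08 in all genes tested. A fold on that scale understates the change of low genes.

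Both classical heavy chains, which present the peptide, rose. *H2-D1* went from 90.4 and 89.7 FPKM to 260 and 293, a difference of 1.60 ± 0.09 (SE) with an adjusted p of 0.000425 in limma. *H2-K1* went from 138 and 138 FPKM to 264 and 244, a difference of 0.87 ± 0.08 with an adjusted p of 0.00126. *H2-K1*, *H2-D1* and the *H2-Q* and *H2-T* genes resemble each other in sequence, and how the authors' assembly divided reads among them is not stated, so that the split between these genes is uncertain. *B2m*, the light chain they share, went from 377 and 327 FPKM to 572 and 669, a difference of 0.82 ± 0.12 with an adjusted p of 0.00484. In each of these genes the replicates lay closer together than the groups.

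The transporter and loading genes differed more among themselves. *Tap1*, which showed the largest difference of the 9, went from 1.75 and 2.68 FPKM to 8.65 and 12.4, a difference of 1.84 ± 0.21 with an adjusted p of 0.0026 in limma. *Tap2*, its partner in the transporter, went from 3.20 and 3.54 FPKM to 6.78 and 8.21, a difference of 0.95 ± 0.12 with an adjusted p of 0.00316. *Tapbp* was the 1 gene of the 9 that did not pass, with 6.81 and 14.3 FPKM in EtOH DMSO and 20.7 and 20.1 in 4-OHT DMSO. Its difference of 0.97 ± 0.30 was as large as that of *Tap2*, but its EtOH DMSO libraries lay far apart and the adjusted p was 0.051. Without the first EtOH DMSO library the difference was 0.48 with an adjusted p of 0.030, and without the second it was 1.45 with an adjusted p of 0.0062.

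All 3 immunoproteasome subunits rose. *Psmb8* (LMP7) went from 3.44 and 2.46 FPKM to 8.49 and 14.1, a difference of 1.61 ± 0.28 with an adjusted p of 0.00826 in limma. *Psmb10* (MECL-1) went from 19.6 and 19.1 FPKM to 30.5 and 33.4, a difference of 0.69 ± 0.08 with an adjusted p of 0.00271. *Psmb9* (LMP2) went from 4.14 and 5.14 FPKM to 6.37 and 9.38, a difference of 0.64 ± 0.19 with an adjusted p of 0.042. *Psmb9* was the least secure of the 8 calls: its adjusted p ranged from 0.011 to 0.173 over the alternatives, and it passed in 7 of 16. *Psmb8* missed the threshold in 1 of 16, without the second EtOH DMSO library (adjusted p = 0.051).

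*Nlrc5*, the activator of class I genes, did not reach 1 FPKM in any library and was not tested with the others. It stood at 0.478 and 0.855 FPKM in the 4-OHT DMSO libraries and at 0.053 in 4-OHT Nec-1, was listed at 0.010 in 1 EtOH DMSO library and was listed at 0 in the remaining 3. Both 4-OHT DMSO values lay above those of all 5 other libraries. In the fit with no filter on low values its difference was 0.72 with an adjusted p of 0.029 in limma.

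The rise differed in size within the pathway, which ratios of 2 genes in the same library show free of the scaling of libraries. *Psmb8* amounted to 6.15% and 4.52% of *Psmb5*, the constitutive subunit whose place it takes, in EtOH DMSO, and to 10.5% and 20.05% in 4-OHT DMSO. *Psmb10* amounted to 46.7% and 56.4% of *Psmb7* in EtOH DMSO and to 68.1% and 75.7% in 4-OHT DMSO, and *Psmb9* to 5.57% and 7.60% of *Psmb6* and then 8.59% and 13.1%. For each of the 3 pairs the 4-OHT DMSO libraries lay above the EtOH DMSO libraries, and even the highest ratios left the constitutive subunit the more abundant. *Tap1* amounted to 54.7% and 75.8% of *Tap2* in EtOH DMSO and to 128% and 151% in 4-OHT DMSO, so that the order of the 2 transporter subunits turned. *H2-D1* amounted to 65.3% and 65.0% of *H2-K1* in EtOH DMSO and to 98.5% and 120% in 4-OHT DMSO, a ratio added after the values had been seen. *B2m* rose less than the heavy chains together, and went from 165% and 144% of their sum to 109% and 125%. With 2 libraries against 2, an exact permutation test (two-sided) cannot give a p below 0.333, and none was run on these ratios.

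**Figure D2:**
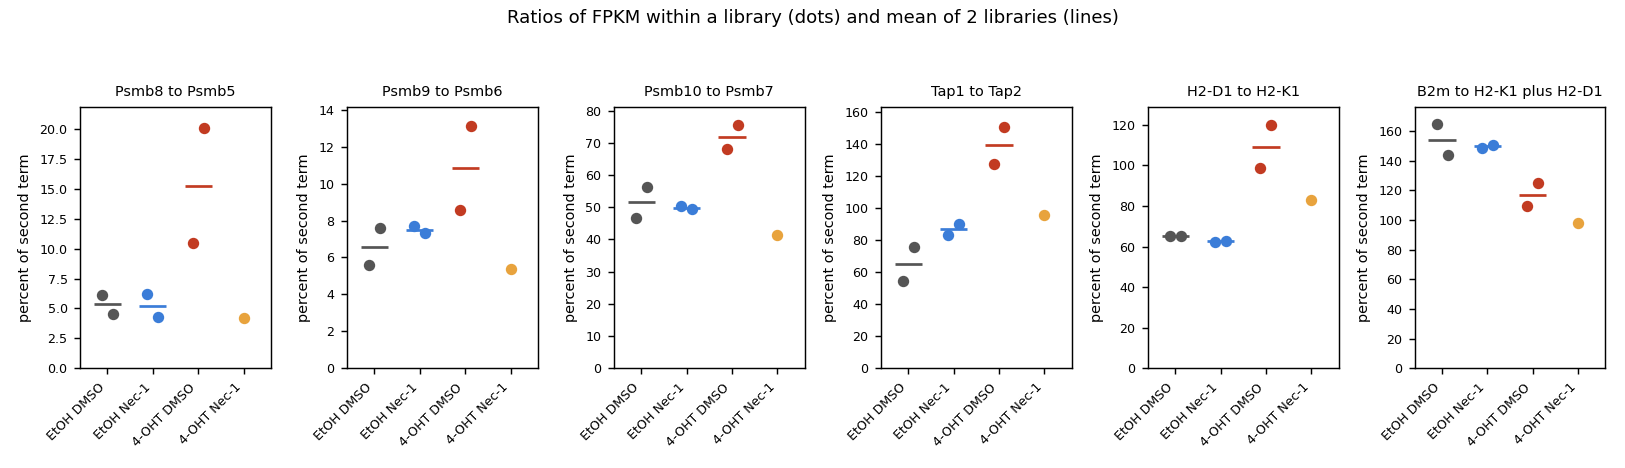
Ratio of FPKM of the genes named above each panel, as a percentage of the second term (y axes, linear, from 0), in the 4 groups, with a dot per library and a line at the mean of 2 libraries. Except for *B2m* to the heavy chains, the 4-OHT DMSO dots are the highest of each panel.

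Of 15 genes of the constitutive 20S core and its assembly factor *Pomp*, 3 rose (*Psmb5*, *Psma3* and *Pomp*) and 0 fell, beside 24.5% and 16.7% of all genes tested, 5 had an unadjusted p under 0.05 in limma, and the median difference was 0.13 (0.08 in all genes). With median centring or upper quartile scaling 0 of the 15 rose and 2 fell, and without the second EtOH DMSO library 0 rose and 1 fell. *Psmb5* went from 56.0 and 54.3 FPKM to 81.2 and 70.5, a difference of 0.45 ± 0.09 with an adjusted p of 0.015, or 0.29 with an adjusted p of 0.070 after median centring. *Psmb6* showed a difference of 0.04 (adjusted p = 0.73) and *Psmb7* one of 0.23 (adjusted p = 0.17), and *Psma7*, an outer ring subunit, one of -0.35 (adjusted p = 0.066). The proteasome activators were divided by kind. The interferon-inducible PA28 subunits *Psme1* (23.8 and 23.7 FPKM, then 37.1 and 38.3) and *Psme2* (41.7 and 41.8, then 57.4 and 61.4) rose by 0.64 and 0.50, the nuclear *Psme3* rose by 0.35, and the PA200 gene *Psme4* fell by 0.30. After either scaling *Psme3* no longer passed (adjusted p of 0.090 with median centring). With 1 library left out, *Psma3* and *Psme3* lost the call in 4 of 7 fits, *Psme4* in 5, and *Psmb5* and *Pomp* in 2, while *Psme1* and *Psme2* kept it in all 7.

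Among 10 other genes of peptide loading and trimming, 3 rose, 2 fell and 5 did not pass, shares near the 24.5% and 16.7% of all genes, with a median difference of 0.09. The chaperones of the peptide loading complex *Calr* (159 and 158 FPKM, then 242 and 251) and *Pdia3* (136 and 125, then 198 and 203) rose by 0.63 and 0.62, with adjusted p of 0.0024 and 0.0034 in limma. The trimming aminopeptidase *Erap1* rose by 0.27 (adjusted p = 0.038), a call lost in 6 of 7 fits with 1 library left out and with either scaling. The aminopeptidases *Lnpep* (9.45 and 11.5 FPKM, then 5.44 and 5.48) and *Npepps* fell by 0.82 and 0.52. With either scaling 2 of the 10 rose and 3 fell.

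The other class I heavy chains, which include non-classical molecules that bind other ligands or other receptors, held members that rose and members that fell. Of 19 genes 18 were found and 14 tested, of which 7 rose, 2 fell and 5 did not pass, beside 24.5% and 16.7% of all genes, with a median difference of 0.51 (0.08 in all genes). *H2-T23* (Qa-1), the ligand of NKG2A receptors, went from 15.9 and 16.2 FPKM to 34.1 and 41.4, a difference of 1.18 ± 0.13 with an adjusted p of 0.0022 in limma. *H2-T24* went from 0.273 and 0.355 FPKM to 2.27 and 2.61, but entered the test only through the 4-OHT DMSO libraries, and without it 6 of 13 rose. Against these, *H2-T3*, the thymus leukaemia antigen of intestinal epithelium, went from 8.62 and 8.97 FPKM to 2.23 and 3.02, a difference of -1.44 ± 0.13 with an adjusted p of 0.0012. *H2-Q10* fell from 44.4 and 42.5 FPKM to 14.7 and 22.2, a difference of -1.22 ± 0.19 with an adjusted p of 0.0057. With median centring 7 rose and 4 fell, and with upper quartile scaling 7 rose and 3 fell. Without the first EtOH DMSO library 4 rose and 2 fell.

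Of 12 transcription factors that bind class I promoters, 5 rose, 1 fell and 6 did not pass, beside 24.5% and 16.7% of all genes tested. The median difference was 0.02 (0.08 in all genes). *Irf1*, which binds the ISRE, went from 3.61 and 3.37 FPKM to 12.2 and 14.1, a difference of 1.65 ± 0.11 with an adjusted p of 0.00061 in limma. *Rela*, the p65 subunit that binds κB sites, rose by 1.15 (adjusted p = 0.0022) and *Rfx5*, of the complex that binds the X box, by 0.54 (adjusted p = 0.037, or 0.099 with median centring). *Creb1* was uneven between replicates, with 3.11 and 3.31 FPKM in EtOH DMSO, but 4.51 and 0.513 in the 4-OHT DMSO libraries and 3.39 and 0.511 in those of EtOH Nec-1 (adjusted p = 0.59). *Nfya*, a subunit of the CCAAT factor, fell by 0.43. With 1 library left out the call was lost in 4 of 7 fits for *Rfx5* and in 5 for *Nfya*, and in 0 for *Irf1* and *Rela*. With either scaling 3 of the 12 rose and 2 fell.

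Of 19 antiviral interferon-stimulated genes tested, 10 lay below 1 FPKM in every EtOH library. These 10 were tested only for being high in libraries labelled 4-OHT. The other 9 rose, beside 24.5% of all genes tested. With 1 FPKM required in every library 8 were tested, all of which rose, with a median of 3.13, among them *Ifit1* (1.44 and 1.45, then 43.4 and 68.2). Of 5 interferon-inducible GTPases tested, 3 (*Gbp3*, *Gbp7* and *Irgm2*) had likewise passed the filter only through the libraries labelled 4-OHT, and the other two rose, *Irgm1* (3.05 and 2.75 FPKM, then 44.0 and 53.7) and *Igtp* (1.41 and 1.48, then 11.8 and 14.2), while 9 of 14 stayed below 1 FPKM in every library. These lists had been known to move in these libraries and serve as a scale for the class I genes.

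Markers of intestinal cell types differed between the same groups. Among all genes tested, 24.5% rose and 16.7% fell. All 8 Paneth, 7 goblet and 6 enteroendocrine cell markers rose in 4-OHT DMSO, with median differences of 1.52, 1.10 and 0.96 (5 of the 7 goblet cell markers with either scaling), such as *Mmp7* (51.7 and 46.4 FPKM, then 256 and 256). Of 8 enterocyte markers 2 rose and 4 fell (*Alpi* from 76.0 and 78.1 FPKM to 22.3 and 30.3), and of 6 stem cell markers 0 rose and 3 fell. In summed FPKM, Paneth cell markers went from 9492 and 8612 to 23578 and 23471 and enterocyte markers from 1491 and 1427 to 1116 and 1176. In bulk samples fewer cells of a type and less RNA per cell cannot be told apart, and the part of cell composition in the class I values was not tested. Summed immune markers went from 2.81 and 3.32 FPKM to 6.54 and 8.72, nearly all of it *Cd68* and *Itgam*, the 2 of the list that were tested, of which *Cd68* rose by 1.73 (adjusted p = 0.0069 in limma). Of 7 epithelial markers 5 rose and 0 fell, with 2 and 0 after median centring and 3 and 1 after upper quartile scaling.

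**Figure D3:**
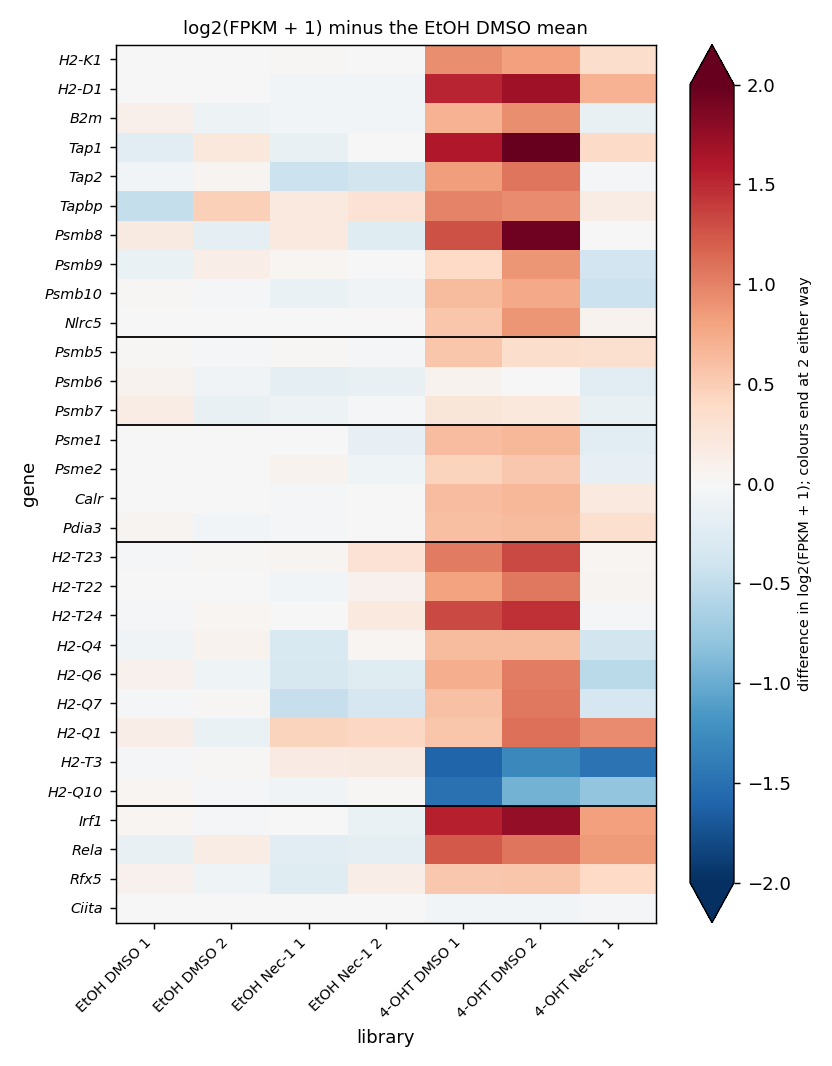
Difference of log2(FPKM + 1) from the mean of the 2 EtOH DMSO libraries (colour, red higher and blue lower, ending at 2 log2 units) for genes (rows) in the 7 libraries (columns). From the top, the blocks hold the 10 class I genes, constitutive proteasome subunits, activator and chaperone genes, other heavy chains, and transcription factors with *Ciita*. Rows below the first block were picked from longer lists. Left out are many genes that fell or did not pass, such as *Psme4*, *Lnpep*, *Npepps* and *Nfya*. Among the rows shown, the 4-OHT DMSO columns are red except in *Psmb6*, *H2-T3*, *H2-Q10* and *Ciita*.

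Without 4-OHT, Nec-1 left no detectable mark on the class I genes. For EtOH Nec-1 against EtOH DMSO, which asks what the inhibitor does in organoids that received no 4-OHT, 0 of the 9 genes passed in limma, and 1 had an unadjusted p under 0.05. Of all genes tested 0.22% passed in either direction, 22 up and 6 down. The exception at the unadjusted level was *Tap2*, with 3.20 and 3.54 FPKM in EtOH DMSO and 2.23 and 2.38 in EtOH Nec-1, a difference of -0.40 ± 0.12 with an adjusted p of 0.30. *H2-K1* stood at 140 and 138 FPKM, *H2-D1* at 87.1 and 86.8 and *B2m* at 338 and 338 in EtOH Nec-1, and their differences of 0.01 ± 0.08, -0.05 ± 0.09 and -0.05 ± 0.12 were smaller than their errors. *Psmb8* (3.48 and 2.32 FPKM), *Psmb9* (4.78 and 4.67), *Tap1* (1.86 and 2.15) and *Tapbp* (11.5 and 12.3) overlapped the values of EtOH DMSO. *Psmb10* stood at 17.6 and 18.3 FPKM, with a difference of -0.10 ± 0.08 (adjusted p = 0.63). Like *H2-D1* and *Tap2*, it lay below both EtOH DMSO libraries in both EtOH Nec-1 libraries, and no share of all genes is given for this. The largest SE among the 9, that of *Tapbp*, was 0.30. The difference of *Tap2* did not pass although it lay well above its SE, so that with 2 libraries effects larger than an SE could also go unseen. The median difference was -0.05 in the 9 genes and -0.09 in all genes tested. In the other lists 1 gene passed, the apolipoprotein and enterocyte marker *Apoa4*, which fell by 1.62 (adjusted p = 0.010).

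In organoids labelled 4-OHT, every class I gene was lower with Nec-1 than in either DMSO library. This comparison rests on 1 library, has no replicate check and no test, and shares the 4-OHT DMSO libraries with the comparison above, so that a high value there lowers the difference here. All 9 genes lay below each 4-OHT DMSO library, as did 50.6% of the 12036 genes whose mean in the 3 libraries reached 1 FPKM. *Psmb8*, *Tap1* and *Psmb10* lay at least 1 log2 unit below each, as did 1.21% of all genes. The median difference was -0.97 in the 9 genes and -0.09 in all genes.

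*Psmb8* stood at 2.88 FPKM in 4-OHT Nec-1 against 8.49 and 14.1 in 4-OHT DMSO, a difference of -1.63 from their mean. *Tap1* stood at 3.17 FPKM against 8.65 and 12.4, a difference of -1.45, and *Psmb10* at 14.1 FPKM against 30.5 and 33.4, a difference of -1.13. *Psmb9* (3.31 FPKM), *Tap2* (3.32) and *B2m* (317) differed by -1.02, -0.97 and -0.96. *H2-D1* (146 FPKM), *Tapbp* (11.2) and *H2-K1* (177) differed by -0.91, -0.82 and -0.52, so that *H2-K1* lay nearest to its 4-OHT DMSO values. The number of genes at least 1 log2 unit below was 6 when the first 4-OHT DMSO library was left out and 3 when the second was. For the Nec-1 difference in 4-OHT organoids against that in EtOH organoids no test was made.

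Of all genes compared, 50.6% lay below each 4-OHT DMSO library, and 1.21% lay at least 1 log2 unit below each. Among related genes, 14 of 15 constitutive 20S genes lay below each, but none by 1 log2 unit. Their median difference was -0.26. *Psme1* and *Psme2* differed by -0.87 and -0.66, *Calr* and *Pdia3* by -0.45 and -0.31. Of the other heavy chains 3 of 14 lay at least 1 log2 unit below (*H2-T23*, *H2-T24* and *H2-Q6*), while *H2-T3* (2.53 FPKM against 2.23 and 3.02) and *H2-Q10* (24.7 against 14.7 and 22.2) did not. *Irf1* (6.89 FPKM) differed by -0.84. Of 20 antiviral genes 17 lay at least 1 log2 unit below, with a median of -2.10. Some of them, such as *Mx1* (0.476 FPKM in 4-OHT Nec-1) and *Oas2* (0.758), reached the mean of 1 FPKM only through 4-OHT DMSO. The same held for *H2-T24* (0.294 FPKM). Such genes were counted only for being high in 4-OHT DMSO. All 8 Paneth cell markers lay below each 4-OHT DMSO library, but 0 by 1 log2 unit, with a median of -0.47.

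Against EtOH Nec-1, the 4-OHT Nec-1 library was above for some class I genes and below for others, in shares near those of all genes. This comparison shares no library with that of 4-OHT DMSO and EtOH DMSO and has no test. Of the 9 genes, 4 lay above each EtOH Nec-1 library, as did 49.9% of 11746 genes, 4 lay below each, as did 38.8%, and *Psmb8* lay between them. None lay at least 1 log2 unit above, as did 4.24% of all genes. The median difference was 0.01 in the 9 genes and 0.07 in all genes.

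The genes above were the heavy chains and the transporter. *H2-D1* stood at 146 FPKM against 87.1 and 86.8 in EtOH Nec-1, a difference of 0.74, and *H2-K1* at 177 against 140 and 138, a difference of 0.34. *Tap1* (3.17 FPKM against 1.86 and 2.15) and *Tap2* (3.32 against 2.23 and 2.38) differed by 0.47 and 0.38. Those below were *B2m* (317 FPKM against 338 and 338) and *Tapbp* (11.2 against 11.5 and 12.3), each with a difference of -0.09, and the immunoproteasome subunits *Psmb10* (14.1 against 17.6 and 18.3) and *Psmb9* (3.31 against 4.78 and 4.67), with -0.33 and -0.41. *Psmb8* differed by 0.01. With median centring and with upper quartile scaling the same numbers, 4 above and 4 below, were found. *Irf1* lay above each EtOH Nec-1 library, with a difference of 0.88.

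**Figure D4:**
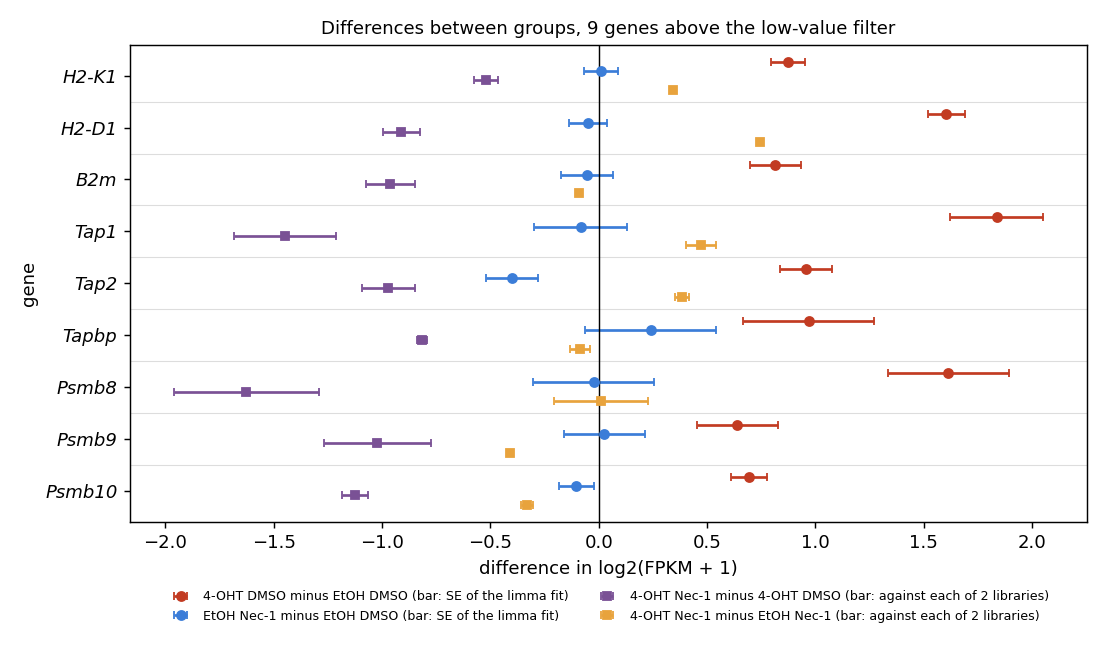
Differences in log2(FPKM + 1) (x axis) of the 9 genes above the low-value filter (y axis) in the 4 comparisons. Bars are the SE of the limma fit for the comparisons with 2 libraries a group and, for those with 4-OHT Nec-1, the differences from each of the 2 libraries; the purple squares lie left of 0 for all 9 genes, and the yellow squares lie right of 0 for the heavy chains and the transporter.

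Ratios within the 4-OHT Nec-1 library were as follows. *Psmb8* amounted to 4.17% of *Psmb5*, *Psmb9* to 5.40% of *Psmb6* and *Psmb10* to 41.3% of *Psmb7*, each below all 4 EtOH libraries. The lowest EtOH values were 4.25%, 5.57% and 46.7%, so that the first and second of these margins were small. *Psmb8* itself (2.88 FPKM) lay within the range of the EtOH libraries, while *Psmb5* (69.1 FPKM) lay above them. *Tap1* amounted to 95.5% of *Tap2* (83.4% and 90.4% in EtOH Nec-1), *H2-D1* to 82.7% of *H2-K1* (62.2% and 62.8%), and *B2m* to 98.1% of the heavy chains together (149% and 150%), the lowest value of the 7 libraries.

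Over the 7 libraries, the genes whose centred log2(FPKM + 1) lay closest to the median course of the 10 genes were *H2-T22*, *Cfb*, *Gm7551*, *AW011738* and *BC037156*, with root mean square distances of 0.060 to 0.092. Of the 9 members tested, the distances were 0.0997 for *B2m* and 0.436 for *Tap1*, with the others between. *H2-T22*, a non-classical class I gene, stood at 9.84 and 9.75 FPKM in EtOH DMSO, then at 17.9 and 21.4 in 4-OHT DMSO, and at 10.2 with Nec-1. *Cfb*, complement factor B, is encoded in the MHC and stood at 23.7 and 26.5 FPKM, then 52.2 and 53.7, and 30.1. *Gm7551* stood at 30.1 and 32.6 FPKM, then 55.7 and 67.8, and 36.3. *AW011738* stood at 0.257 and 0.236 FPKM, then 1.19 and 1.65, and 0.408. *BC037156* was listed at 0 and 0 FPKM, then 1.02 and 1.10, and 0.251. The search required 1 FPKM in 2 libraries, which *AW011738* and *BC037156* reached only in 4-OHT DMSO. Being high there was a condition of their entry, so that their likeness was partly fixed in advance.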

How the data were processed

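Organoid RNA had been sequenced in 7 libraries, and the authors deposited an FPKM value for each Ensembl mouse gene in each library. The submitters' notes name HISAT2 2.1.0, StringTie 1.3.3b and mm10, and the annotation is not given in the sources used here. FPKM are scaled for transcript length and mapped fragments, so that fragment counts and single-value depth are unknown, and a large rise of a few genes lowers the values of all others. One file had columns for 3 libraries, of which 2 repeated other files to within 0.00015 of their value. No column was left unmapped (0). The 2 Atf3 ChIP samples were not analysed here.

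Of 54838 identifiers, 54723 matched a symbol, and H2-T9 was not matched. In R 4.3.3, limma 3.58.1 with a mean-variance trend was fitted to log2(FPKM + 1) of the 12702 genes that reached 1 FPKM in 2 libraries or more, with 1 mean per group, 3 residual degrees of freedom and a Benjamini-Hochberg threshold of 0.05. The fit was checked on simulated data, and the remaining values came from Python 3.11.15 with pandas 2.3.3, numpy 2.4.6 and matplotlib 3.10.9. 4-OHT Nec-1, with 1 library, was compared without a test over genes whose mean reached 1 FPKM, counting genes that differed by 1 log2 unit or more from each library compared.

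The genes, lists, tests and alternatives were chosen with earlier results of these data known. Named are the 10 genes, *Mettl3*, fixed relatives (*Psmb5*, *Psmb6*, *Psmb7*, *Irf1*, *Rfx5*), up to 4 genes of each list with the largest differences between 4-OHT DMSO and EtOH DMSO, and the 5 genes nearest in course. *Erap1*, *Nfya*, *Apoa4*, *H2-Q6*, *Epcam*, immune markers near 0 and the class II genes in the closing section were added after their values were seen. Of the genes so chosen, 2 are not reported here. Promoter windows and positions were taken from RefSeq's GRCm38.p6 tables. Alternatives were another scaling, filter, pseudocount or threshold, only the 4 libraries of a comparison, a replicate block, and each library left out.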

Additional observations from a re-analysis of the deposited data

Results flagged for a closer look

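None of the 10 class I genes went in opposite directions with Nec-1 in EtOH organoids and in organoids labelled 4-OHT, where every library of one side would have to rise and every library of the other fall. Of 77 named genes checked, 6 did so, and the difference between the organoids was not tested, since 4-OHT Nec-1 has 1 library. *H2-T23* differed by 0.17 in log2(FPKM + 1) with Nec-1 in EtOH organoids and by -1.15 in those labelled 4-OHT. Of the Paneth and goblet cell markers, *Mmp7* differed by 0.33 and -0.68, *Ang4* by 0.40 and -0.072, *Clca1* by 0.25 and -0.10 and *Agr2* by 0.41 and -0.27. *Npepps* differed by -0.22 and 0.040. For *Npepps*, *Ang4* and *Clca1* the difference in organoids labelled 4-OHT was at most 0.10 either way. Genes of the same lists outside these 77 met the rule too. Examples are the Paneth cell markers *Lyz1* (0.14 and -0.09), *Itln1* (0.23 and -0.17) and *Defa24* (0.18 and -0.50). No share over all genes stands beside these counts.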

How the results depend on the processing

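For 4-OHT DMSO against EtOH DMSO, *H2-K1*, *H2-D1*, *B2m*, *Tap1*, *Tap2* and *Psmb10* passed under all 16 alternatives with an adjusted p, and no class I gene changed direction. The number of the 9 genes called was 3 under the paper's criterion (unadjusted p under 0.05 and at least 1 log2 unit), which called 879 genes higher and 485 lower. It was 7 to 8 with each library left out in turn. With median centring the median of all genes moved from 0.08 to -0.08, 2213 genes were higher and 3187 lower (main: 3117 and 2120), and the median of the class I genes was 0.80 (0.81 with upper quartile scaling). Same-numbered libraries share only a number (correlations of their deviations between -0.04 and 0.01), and a replicate block called 2788 genes higher and 1909 lower, and 9 class I genes, with *Tapbp* added at an adjusted p of 0.049.

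For EtOH Nec-1 against EtOH DMSO 0 class I genes passed under every alternative run. Their median of -0.05 became 0.049 with median centring and 0.056 with upper quartile scaling. Genes called higher and lower numbered 22 and 6, 37 higher with upper quartile scaling, 6 and 2 with no filter, 61 and 29 under the paper's criterion and 59 and 20 with only the 4 libraries. With each library left out they ranged from 5 to 60 higher and 2 to 19 lower.

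For 4-OHT Nec-1 against 4-OHT DMSO, genes at least 1 log2 unit below numbered 146, 97 with a mean of at least 5 FPKM, 255 with pseudocount 0.1 and 232 with pseudocount 0.25. Leaving out 1 DMSO library gave 244 to 543 below and 181 to 247 above (main: 92), and 3 to 6 class I genes below, whose median was -1.15 with pseudocount 0.1. For 4-OHT Nec-1 against EtOH Nec-1, 228 genes lay below and 498 above. With a mean of at least 5 FPKM these were 137 and 296, with 2 class I genes above each library, since fewer genes were kept, and with pseudocount 0.1 they were 379 and 753. The class I median ranged from -0.040 to 0.23 with 1 EtOH Nec-1 library left out. A group left with 1 library was assumed to vary like the others. The causes of these shifts were not tested. The limits are 2 libraries or 1 a group, unknown depth, and reads that similar class I genes may share.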

Other observations

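MHC class II genes, which present peptides from outside the cell and which intestinal epithelium can express under interferon-γ, were low and moved unevenly. Of 7 genes 5 were tested, and for 4-OHT DMSO against EtOH DMSO 1 rose and 1 fell of the 4 that did not depend on the libraries labelled 4-OHT to be tested, in limma. Among all genes tested, 24.5% rose and 16.7% fell. *Cd74*, the invariant chain, stood at 1.19 and 1.31 FPKM in EtOH DMSO, then at 9.61 and 10.3 in 4-OHT DMSO, with a rise of 2.28 (adjusted p = 0.000376), and at 4.85 in the 4-OHT Nec-1 library. *H2-DMa*, of the peptide exchange factor, stood at 4.45 and 4.32 FPKM, then 1.08 and 1.19, and 1.40, a fall with a difference of -1.34 (adjusted p = 0.0011). *H2-Eb1*, the other one called higher, lay below 1 FPKM in every EtOH library and was tested only for being high in those labelled 4-OHT (1.98 and 2.34 FPKM in 4-OHT DMSO). *H2-Ab1* stood at 10.7 and 9.08 FPKM, then 7.06 and 10.5 (adjusted p = 0.48), and *Ciita*, the activator of class II genes, was listed at or below 0.041 FPKM in every library.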
